A study of Homo sapiens with 12 samples.

Results

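The 8 enzymes described here make the deoxynucleotides from which DNA is built: RRM1, RRM2, TYMS, TK1, TK2, DCK, DTYMK and DUT. They were followed through all 15 probe sets whose platform annotation holds the symbol of that gene alone, of 22215 probe sets tested, and they are 8 of the 11963 genes that such probe sets represent. RRM1, RRM2 and TYMS had 2 probe sets each, DUT and TK2 had 3 each, and TK1, DCK and DTYMK had 1 each. Of the 1043 probe sets annotated with several symbols, 0 named a member. The cells, MDA-MB-231, are an established triple-negative human breast cancer line with mesenchymal features, and RNA was measured on 12 Affymetrix 3′ expression arrays, 1 per sample. A lentivirus brought a short hairpin RNA (shRNA) into the cells, which lowers the RNA it matches. HDAC5 is a class IIa histone deacetylase. LSD1, encoded by KDM1A, is a histone lysine demethylase. The 4 groups hold 3 arrays each. The HDAC5 experiment holds HDAC5 shRNA arrays 1, 2 and 3 and scramble shRNA arrays 1, 2 and 3, where a scramble hairpin is a control that matches no intended target. The LSD1 experiment holds LSD1 shRNA arrays 1, 2 and 3 and its own scramble arrays A, B and C, tagged LSD1 in their titles. The untagged scramble arrays were taken as the controls of HDAC5 shRNA since only the other set is tagged LSD1 and the order of treatments in the design text places them there. Every group had virus, and uninfected cells are not among the groups. The titles number the replicates as biological. Whether they are separate cultures, transductions or days is not stated in the labels, nor are the hairpin sequences and the time after transduction, so the p-values measure the spread between these samples.

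Deoxynucleotides are made along a de novo route and a salvage route. Ribonucleotide reductase, built from the large catalytic subunit RRM1 and the small radical-bearing subunit RRM2, reduces ribonucleotides to deoxynucleotides. DUT turns dUTP into dUMP, which keeps uracil out of DNA and feeds TYMS, the enzyme that methylates dUMP to dTMP; DTYMK then phosphorylates dTMP. TK1 and DCK recover deoxynucleosides in the cytosol, and TK2 does so in mitochondria. RRM2, TK1 and TYMS are textbook S phase genes under E2F control, whereas TK2 is known as the thymidine kinase of cells outside S phase, where it supports mitochondrial DNA.

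The values are log2 levels from robust multi-array averaging (RMA), and an adjusted p is from limma with Benjamini-Hochberg adjustment over all 22215 probe sets; a probe set under 0.05 was called changed. HDAC5 RNA fell by 1.11 (SE 0.11, adjusted p = 4.7e-05) with HDAC5 shRNA, and KDM1A fell by 3.08 (SE 0.12, adjusted p = 5.4e-05) with LSD1 shRNA. Array medians were 6.59 to 6.65 for the HDAC5 experiment but 7.05 to 7.15 for the LSD1 experiment. Pairwise correlations within a group were 0.998 to 0.999 in the HDAC5 experiment and 0.991 to 0.998 in the LSD1 experiment, and 0 pairs of arrays were identical. LSD1 shRNA array 2 stood apart from its replicates: the mean of the 8 members was -0.57 from the scramble mean there, against -0.08 on array 1 and -0.14 on array 3. The member changes, the paired differences and the list counts of the LSD1 experiment are given with and without it. All 6 mesenchymal markers (such as VIM and CD44) were above the array median in every group, and 0 of the 4 blood markers measured were, with PTPRC and LCP2 below the lower quartile. Of 8 luminal markers, 4 (KRT18, KRT8, EPCAM and GATA3) were above the array median in every group, PGR was below the lower quartile in every group and CDH1 in every group but LSD1 shRNA. Of 6 fibroblast or endothelial markers, LUM, VWF and CDH5 were below the lower quartile in every group, and PECAM1 was above the median in both groups of the HDAC5 experiment. With HDAC5 shRNA 3 mesenchymal markers were called higher and 1 lower (led by SPARC at 0.69, CAV1 at 0.40 and MSN at -0.16), 3 luminal markers higher and 1 lower (led by EPCAM at 0.67, KRT8 at 0.36 and CDH1 at -0.30) and 3 fibroblast or endothelial markers lower (PECAM1 at -0.62, PDGFRB at -0.48 and VWF at -0.31). These counts use the highest-mean probe set of each marker and stand beside 20.7% of all genes called higher and 22.4% lower. Of these named genes, the further probe set of CAV1 was also called higher (0.52). Those of SPARC (0.05), CDH1 (-0.05) and PECAM1 (-0.30 and -0.02) were not called. With LSD1 shRNA SPARC (0.67), CDH1 (2.22), KRT8 (0.49) and LUM (1.54) were called higher, and without array 2 these 4 and KRT18 were (0.70, 2.26, 0.52, 1.37 and 0.37). Of all genes, 2.65% were called higher with LSD1 shRNA, and 3.12% without array 2. With all arrays, the further probe sets of SPARC (0.20, adjusted p = 0.635) and CDH1 (0.20, adjusted p = 0.296) were not called. With either shRNA 0 of 4 blood markers were called by limma. Each time 1 of 4 had an unadjusted p under 0.05. In fits of 1 probe set per gene 5974 of 11963 genes did with HDAC5 shRNA, and 2629 with LSD1 shRNA. The summed log2 level of the luminal markers ran from 55.97 to 56.34 with scramble and 56.97 to 57.34 with HDAC5 shRNA, and from 61.52 to 61.64 with scramble and 63.48 to 65.03 with LSD1 shRNA. That of the fibroblast or endothelial markers ran from 28.25 to 28.51 and 26.70 to 27.11, then from 30.11 to 30.85 and 31.57 to 32.72. The part of these markers in the results was not tested. The 3′ to 5′ difference of the ACTB probe sets, a measure of RNA integrity and labelling, was 0.90 with scramble and 0.68 with HDAC5 shRNA (exact two-sided permutation p = 0.1, the smallest that 3 against 3 allows), and 1.30 and 1.43 in the LSD1 experiment (exact p = 0.2). The same difference of the GAPDH probe sets was 0.034 with scramble and 0.017 with HDAC5 shRNA (exact p = 0.2). In the LSD1 experiment it was 0.0015 with scramble and 0.042 with LSD1 shRNA (exact p = 0.1). The part of these measures in the results was not tested.

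With HDAC5 shRNA, every member of the cytosolic and nuclear supply of deoxynucleotides was higher on at least 1 probe set, and the mitochondrial kinase TK2 was lower on all 3 of its probe sets. RRM2 rose most, by 2.52 and 2.66 on its 2 probe sets. Ordered by the largest rise of each gene, TK1 (1.74), DUT (1.53), TYMS (1.52), RRM1 (1.28 and 1.05), DTYMK (1.14) and DCK (0.77) followed. On its highest-mean probe set, 208956_x_at, DUT rose by 0.52, less than DCK. In all, 14 of 15 member probe sets were called changed, 11 higher and 3 lower, where 38.2% of all probe sets were called, 19% higher and 19.2% lower. The shRNA and scramble arrays did not overlap for these 14 of 15, and for 46% of all probe sets, 22.5% with the shRNA higher and 23.5% with it lower. The median change over the 15 was 1.05, and over all probe sets it was -0.01. With LSD1 shRNA, 0 of 15 were called by limma, where 3.81% of all probe sets were, 2.11% higher and 1.7% lower. In bulk RNA, fewer cells of a type and less RNA per cell cannot be told apart, and this holds for every change given here.

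**Figure D1:**
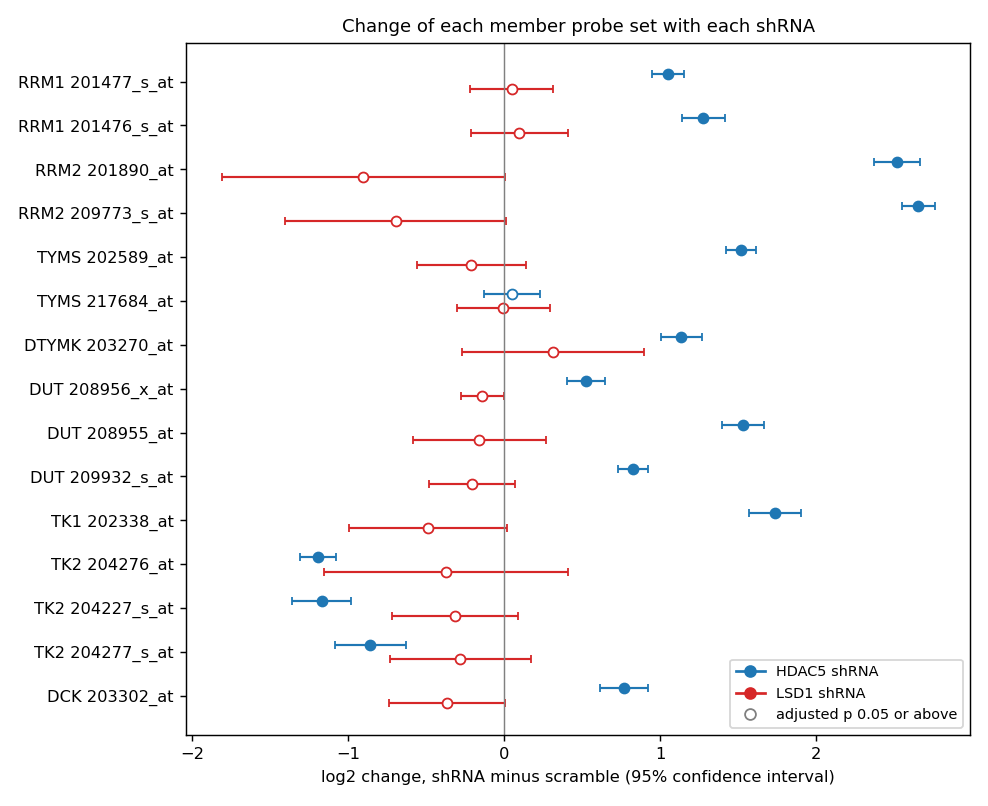
Log2 change of each of the 15 member probe sets, shRNA minus scramble of the same experiment, with limma's 95% confidence interval and 3 arrays per group; filled points have an adjusted p under 0.05. With HDAC5 shRNA 11 points lie to the right and the 3 TK2 points to the left of 0, and with LSD1 shRNA all 15 are open, with RRM2 lowest at -0.90 and -0.69.

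The promoters of members that moved together, and of TK2, which moved the other way with HDAC5 shRNA, are shown as the 250 bases before an annotated start, from RefSeq on GRCh38.p14 and 5′ to 3′ on the gene's strand. They are RRM2 (chr2:10122489-10122738, + strand), TK1 (chr17:78187053-78187302, - strand), TYMS (chr18:657403-657652, + strand), DUT (chr15:48331947-48332196, + strand) and TK2 (chr16:66550123-66550372, - strand). Capitals mark the CCAAT box bound by NF-Y (CCAAT or its reverse complement ATTGG) and E2F words (TTTCCCGC, TTTCGCGC, TTTGCCGC or TTTGGCGC, or their reverse complements).
RRM2: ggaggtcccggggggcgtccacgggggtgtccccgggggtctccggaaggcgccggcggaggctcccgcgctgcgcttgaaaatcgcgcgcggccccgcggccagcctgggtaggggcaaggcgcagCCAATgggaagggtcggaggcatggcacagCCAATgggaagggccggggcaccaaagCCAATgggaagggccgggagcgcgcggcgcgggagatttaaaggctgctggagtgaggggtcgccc
TK1: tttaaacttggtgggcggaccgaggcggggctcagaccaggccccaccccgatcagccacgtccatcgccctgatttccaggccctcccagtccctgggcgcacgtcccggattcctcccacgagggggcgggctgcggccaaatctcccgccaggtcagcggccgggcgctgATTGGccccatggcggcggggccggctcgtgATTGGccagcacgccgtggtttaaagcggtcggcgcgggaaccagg
TYMS: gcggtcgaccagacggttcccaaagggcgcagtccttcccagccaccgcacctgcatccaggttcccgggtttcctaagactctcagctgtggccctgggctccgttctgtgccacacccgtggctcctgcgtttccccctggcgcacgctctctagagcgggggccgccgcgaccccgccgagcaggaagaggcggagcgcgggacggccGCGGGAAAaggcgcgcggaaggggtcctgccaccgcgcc
DUT: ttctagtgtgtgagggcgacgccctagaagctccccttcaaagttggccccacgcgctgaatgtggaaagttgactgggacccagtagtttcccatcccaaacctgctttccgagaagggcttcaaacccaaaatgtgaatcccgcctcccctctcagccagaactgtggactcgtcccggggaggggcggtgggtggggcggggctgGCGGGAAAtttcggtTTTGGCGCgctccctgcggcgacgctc
TK2: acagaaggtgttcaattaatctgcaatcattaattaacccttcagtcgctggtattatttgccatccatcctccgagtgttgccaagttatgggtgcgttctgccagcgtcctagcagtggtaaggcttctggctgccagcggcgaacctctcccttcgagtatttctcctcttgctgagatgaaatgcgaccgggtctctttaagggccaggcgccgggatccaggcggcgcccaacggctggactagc

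RRM2, the member with the largest change, has 3 CCAAT boxes in this stretch, at -123, -93 and -66 from the start. TK1 has 2 on the reverse strand, at -77 and -46, TYMS has 1 E2F word at -39, and DUT has 2 E2F words, at -42 and -27. TK2 has neither kind of word in its window, which says only that these letters are absent there. Among the other members, DTYMK has 2 CCAAT boxes, RRM1 has 1, and DCK has 1 E2F word, which lies 21 bases after the start. Both strands of all 35116 RefSeq windows, from 250 bases before to 50 after a start, were searched for the same letters. A CCAAT box was found in 34.6% of them, 2 or more in 10.8% and 3 or more in 3.26%. An E2F word was found in 3.31%, and 2 or more in 0.145%. The cell cycle word TTTGAA, searched in the same way and not in capitals, was found in 15.2% of windows, in RRM1 at 1 place and in the DUT window at 2. The CCAAT, E2F and TTTGAA words did not overlap one another in the members' windows. All 8 members had a window, and RRM2, TK1 and DUT had several (13 windows in all), which gave these genes more chances of a match. The window shown was chosen after the matches were seen. The windows not shown held 1 CCAAT box for RRM2, and neither a CCAAT box nor an E2F word for TK1 and DUT. A match is a description of the letters, not of a factor on them.

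Ribonucleotide reductase is the entry to the de novo route, and its small subunit RRM2 is the part whose amount follows S phase. On RRM2 probe set 201890_at the scramble arrays of the HDAC5 experiment read 9.89, 9.62 and 9.86, and the HDAC5 shRNA arrays read 12.29, 12.31 and 12.33. All 3 shRNA arrays lay far above all 3 scramble arrays, by a change of 2.52 (SE 0.07; 5.73-fold, adjusted p = 2.9e-08). The second probe set, 209773_s_at, read 9.10, 9.04 and 9.01 with scramble and 11.76, 11.63 and 11.72 with HDAC5 shRNA, a change of 2.66 (SE 0.05; 6.3-fold, adjusted p = 3.9e-09). The 2 probe sets therefore gave the same direction with groups that did not overlap. In the LSD1 experiment 201890_at read 12.93, 12.74 and 12.97 with scramble and 12.36, 10.99 and 12.58 with LSD1 shRNA. The shRNA arrays were all below the scramble arrays, and array 2 was far below the other two. The change was -0.90 (SE 0.38; 95% confidence interval -1.81 to 0.01, adjusted p = 0.257), and without array 2 it was -0.41 (-0.64 to -0.17, adjusted p = 0.073). Probe set 209773_s_at read 12.59, 12.34 and 12.50 with scramble and 12.14, 11.02 and 12.20 with LSD1 shRNA. Again the groups did not overlap and array 2 was lowest; the change was -0.69 (SE 0.30, adjusted p = 0.264), and -0.31 (adjusted p = 0.087) without array 2.

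The large subunit RRM1, which carries the active site, is known as the steadier of the pair through the cell cycle. Probe set 201477_s_at read 10.91, 10.88 and 10.98 with scramble and 11.91, 12.06 and 11.96 with HDAC5 shRNA, a change of 1.05 (SE 0.05; 2.07-fold, adjusted p = 3.1e-07). Probe set 201476_s_at read 8.08, 8.21 and 8.24 with scramble and 9.44, 9.39 and 9.53 with HDAC5 shRNA, a change of 1.28 (SE 0.06, adjusted p = 4.9e-07). On both probe sets each HDAC5 shRNA array was above each scramble array. With LSD1 shRNA, 201477_s_at read 12.76, 12.31 and 12.70 against 12.57, 12.53 and 12.53, so arrays 1 and 3 were above the scramble arrays and array 2 below them. The change was 0.05 (SE 0.11; interval -0.22 to 0.32, adjusted p = 0.866), and 0.19 (0.09 to 0.29, adjusted p = 0.064) without array 2. On 201476_s_at the LSD1 shRNA arrays read 8.98, 8.55 and 8.86 against 8.75, 8.72 and 8.62, which overlap, with a change of 0.10 (SE 0.13, adjusted p = 0.746), or 0.22 (adjusted p = 0.242) without array 2.

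The unequal change of the subunits was measured as the RRM2 value minus the RRM1 value on the same array, each gene by the probe set with the highest mean. This quantity has meaning only as a shift between groups, since the levels of different probe sets are not comparable. Relative to its scramble mean it was 1.52, 1.38 and 1.50 on the HDAC5 shRNA arrays, a mean shift of 1.47, against 0.11, -0.13 and 0.02 on the scramble arrays. The shift towards RRM2 was seen on 3 of 3 arrays (exact two-sided permutation p = 0.1, the smallest possible). On the LSD1 shRNA arrays it was -0.74, -1.66 and -0.46, a mean shift of -0.95, against 0.02, -0.13 and 0.11 on their scramble arrays (exact p = 0.1). All 3 LSD1 shRNA arrays, array 2 most, were below their scramble arrays, and without array 2 the shift was -0.60. With the mean of each gene's probe sets the shifts were 1.42 and -0.87.

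**Figure D2:**
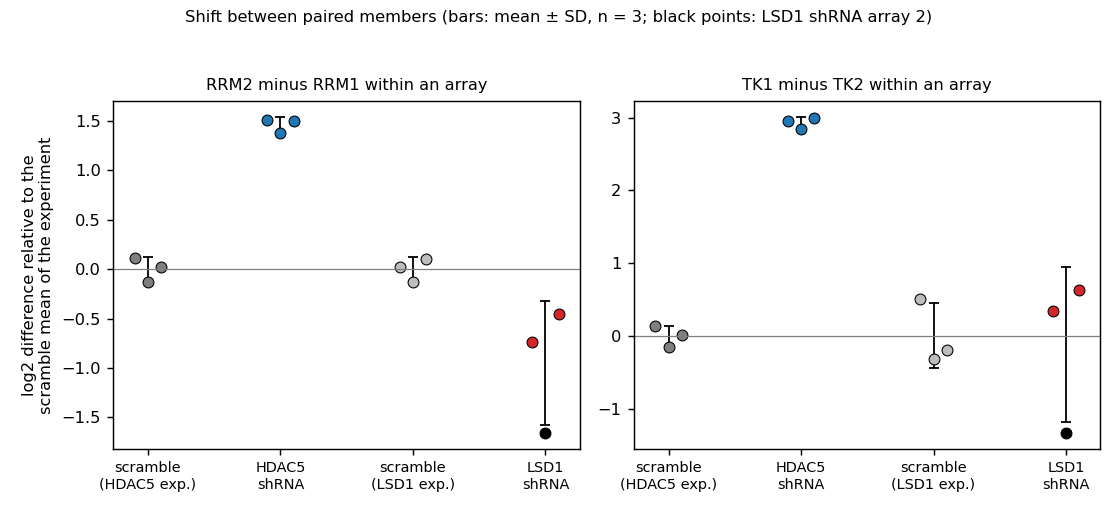
Log2 difference between paired members on the same array, relative to the mean of the scramble arrays of its experiment, with 3 arrays and the mean ± SD per group: RRM2 minus RRM1 at left, TK1 minus TK2 at right. HDAC5 shRNA arrays lie above their scramble arrays in both panels (shifts of 1.47 and 2.93); LSD1 shRNA arrays lie below theirs at left (-0.95) and overlap them at right (-0.12), where array 2, in black, is lowest.

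In the thymidylate branch, TYMS makes dTMP from dUMP. Its probe set 202589_at read 10.69, 10.55 and 10.65 with scramble and 12.18, 12.16 and 12.10 with HDAC5 shRNA. The groups were far apart, with a change of 1.52 (SE 0.04; 2.86-fold, adjusted p = 4.7e-08). In the LSD1 experiment it read 12.79, 12.72 and 12.76 with scramble and 12.78, 12.18 and 12.69 with LSD1 shRNA. Arrays 1 and 3 were 0.02 and -0.07 from the scramble mean and array 2 was -0.58 from it. The change was -0.21 (SE 0.15; interval -0.56 to 0.14, adjusted p = 0.505), and -0.02 (-0.13 to 0.09) without array 2. The other TYMS probe set, 217684_at, read between 3.92 and 4.62 on all 12 arrays, below the lower quartile of its array each time, and the groups of each experiment overlapped. Its change was 0.05 with HDAC5 shRNA (SE 0.08; interval -0.13 to 0.23, adjusted p = 0.664), so it was the 1 member probe set not called. At such a low signal a change of the transcript can be hidden by background. The TYMS gene overlaps its neighbour ENOSF1 in the RefSeq annotation, and the probes' own positions were not analysed here.

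DUT, the dUTPase that supplies dUMP to TYMS, rose on its 3 probe sets by unequal amounts. On 208955_at the arrays read 8.85, 8.75 and 8.64 with scramble and 10.25, 10.25 and 10.34 with HDAC5 shRNA, a change of 1.53 (SE 0.06; 2.89-fold, adjusted p = 2e-07). On 209932_s_at they read 11.61, 11.49 and 11.47, then 12.41, 12.31 and 12.33, a change of 0.83 (SE 0.04, adjusted p = 9.1e-07). On 208956_x_at they read 12.29, 12.17 and 12.26, then 12.68, 12.88 and 12.73, a change of 0.52 (SE 0.05; 1.44-fold, adjusted p = 5.4e-05). The groups were apart on all 3 probe sets, with the largest change on 208955_at and the smallest on 208956_x_at. A probe set ending in _x_at can match related transcripts, and the _s_at and _x_at values may include them. With LSD1 shRNA the changes were -0.16 (208955_at), -0.21 (209932_s_at) and -0.14 (208956_x_at). The groups overlapped on 208955_at and 209932_s_at and were apart on 208956_x_at, at 13.25, 13.24 and 13.24 with scramble and 13.14, 12.98 and 13.18 with LSD1 shRNA. The adjusted p of 208956_x_at was 0.243 by limma. No other member probe set had an unadjusted p under 0.05 in the LSD1 comparison (1 of 15). Of all 22215 probe sets, 4373 had one. Array 2 was the lowest LSD1 shRNA array on each of the 3, and without it the changes were 0.06, -0.07 and -0.08.

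DTYMK, the thymidylate kinase that serves both the de novo and the salvage route, read 8.32, 8.34 and 8.23 with scramble and 9.42, 9.35 and 9.52 with HDAC5 shRNA. The groups were apart, with a change of 1.14 (SE 0.06; 2.2-fold, adjusted p = 8.1e-07). In the LSD1 experiment it read 10.05, 9.65 and 9.84 with scramble and 10.42, 9.59 and 10.47 with LSD1 shRNA. Here arrays 1 and 3 were above every scramble array while array 2 was below all of them. The change was 0.31 (SE 0.25; interval -0.27 to 0.90, adjusted p = 0.552), and without array 2 it was 0.60 (0.29 to 0.91, adjusted p = 0.06).

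**Figure D3:**
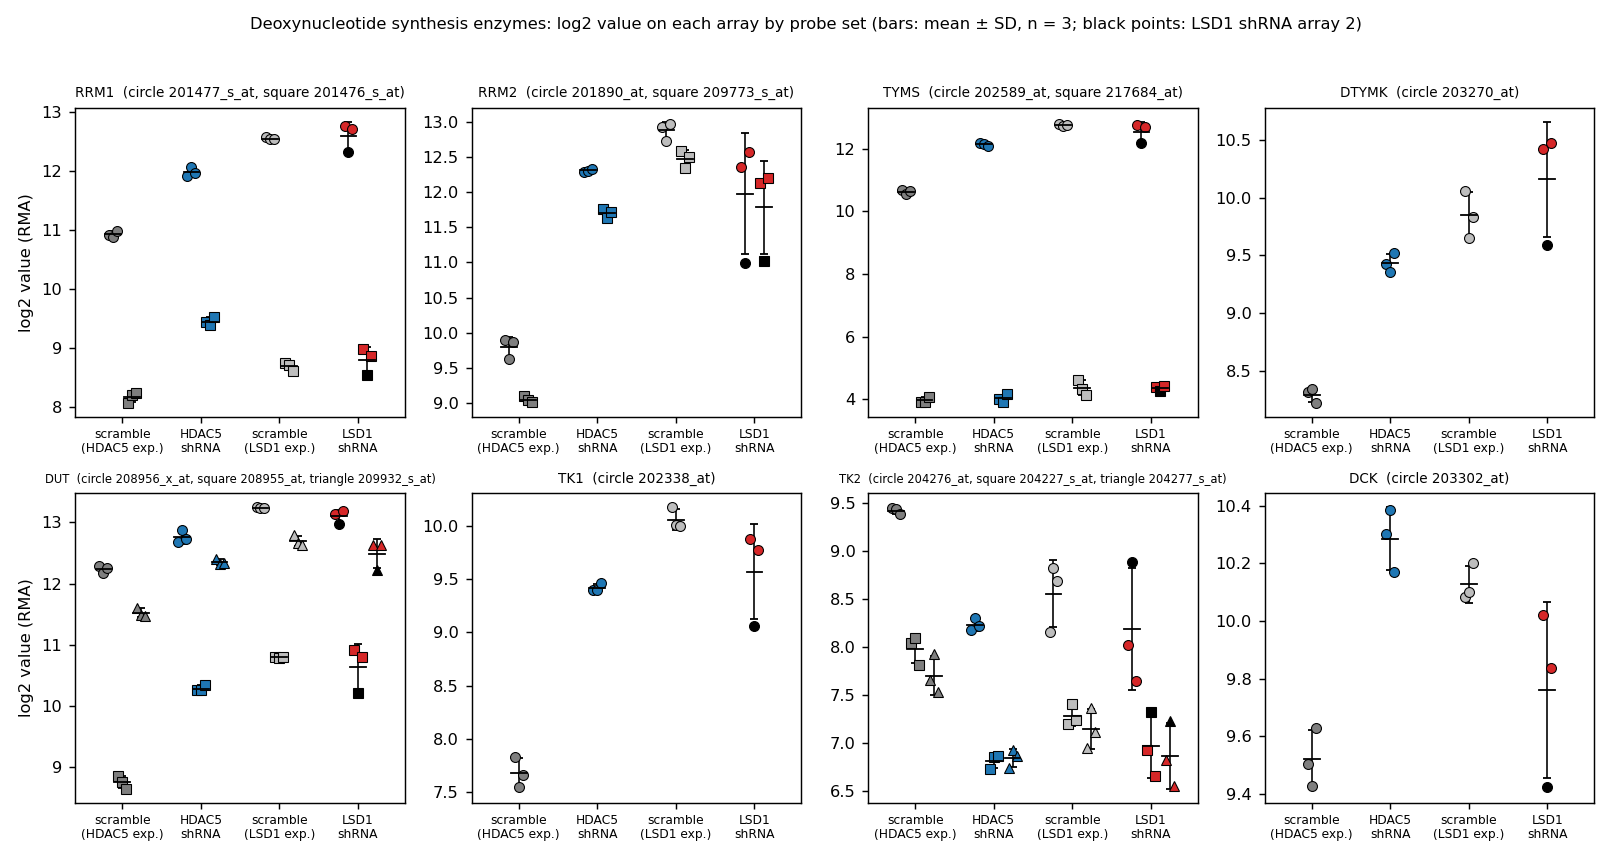
Log2 RMA value of every member probe set on each of the 12 arrays, 1 panel per gene with its own vertical scale, and the mean ± SD of the 3 arrays in each group; LSD1 shRNA array 2 is black. Except for TYMS 217684_at and TK2, the HDAC5 shRNA arrays lie above their scramble arrays. For TK2 they lie below them. Array 2 is low in RRM2 and TK1, high in TK2 204276_at and within the scramble range on the other TK2 probe sets.

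Of the salvage kinases, TK1 is the cytosolic thymidine kinase of proliferating cells. It read 7.83, 7.55 and 7.66 with scramble and 9.39, 9.39 and 9.46 with HDAC5 shRNA. All shRNA arrays were above all scramble arrays, with a change of 1.74 (SE 0.07; 3.33-fold, adjusted p = 2.8e-07). In the LSD1 experiment TK1 read 10.17, 10.004 and 9.99 with scramble and 9.87, 9.06 and 9.77 with LSD1 shRNA. The shRNA arrays were again lower than every scramble array, array 2 by far the most. The change was -0.49 (SE 0.21; interval -0.997 to 0.02, adjusted p = 0.269), and -0.24 (-0.46 to -0.01, adjusted p = 0.209) without array 2. DCK, which phosphorylates deoxycytidine and purine deoxynucleosides and many nucleoside drugs, read 9.50, 9.43 and 9.63 with scramble and 10.30, 10.39 and 10.17 with HDAC5 shRNA. This was the smallest rise among the genes with 1 probe set, 0.77 (SE 0.07; 1.7-fold, adjusted p = 2.25e-05), with groups apart. With LSD1 shRNA DCK read 10.02, 9.42 and 9.84 against 10.08, 10.10 and 10.20, every shRNA array below every scramble array. The change was -0.37 (SE 0.16, adjusted p = 0.257), and -0.20 (adjusted p = 0.278) without array 2.

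TK2, the mitochondrial thymidine kinase, was the 1 member that fell with HDAC5 shRNA. Probe set 204276_at read 9.45, 9.44 and 9.39 with scramble and 8.18, 8.30 and 8.22 with HDAC5 shRNA, a change of -1.19 (SE 0.05, adjusted p = 3e-07). Probe set 204227_s_at read 8.05, 8.09 and 7.81, then 6.73, 6.85 and 6.86, a change of -1.17 (SE 0.08, adjusted p = 5.75e-06). Probe set 204277_s_at read 7.66, 7.92 and 7.53, then 6.74, 6.92 and 6.87, a change of -0.86 (SE 0.10, adjusted p = 0.00012). No shRNA array reached a scramble array on any of the 3. In the LSD1 experiment the spread was wider: 204276_at read 8.16, 8.82 and 8.69 with scramble and 8.03, 8.89 and 7.64 with LSD1 shRNA. Arrays 1 and 3 were the lowest of the 6 and array 2 the highest, the opposite of its place for RRM2 and TK1. The changes were -0.37 (SE 0.33), -0.31 (SE 0.17) and -0.28 (SE 0.19) for 204276_at, 204227_s_at and 204277_s_at, with adjusted p of 0.605, 0.38 and 0.488, and the groups overlapped on each. Without array 2 they were -0.72 (interval -1.28 to -0.17, adjusted p = 0.137), -0.49 (-0.79 to -0.20, adjusted p = 0.080) and -0.46 (-0.83 to -0.09, adjusted p = 0.153).

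The TK1 value minus the TK2 value on the same array, relative to the scramble mean, was 2.96, 2.84 and 2.99 with HDAC5 shRNA. The mean shift of 2.93 lay outside the scramble arrays' 0.13, -0.15 and 0.02 on 3 of 3 arrays (exact two-sided permutation p = 0.1, the smallest possible). On the LSD1 shRNA arrays it was 0.35, -1.33 and 0.63, against 0.51, -0.32 and -0.19 with scramble. The groups overlapped, with a mean shift of -0.12 (exact p = 0.9) that joins a positive value on arrays 1 and 3 to a negative one on array 2. Without array 2 the shift turned to 0.49, still with overlap (exact p = 0.3, where 0.1 is the smallest that 2 against 3 allows).

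Over the 15 probe sets, the LSD1 comparison had a median change of -0.21, against -0.001 over all probe sets. Without array 2 these medians were -0.078 and 0.0098. The groups did not overlap for 5 of 15 probe sets, all with the shRNA lower (both of RRM2, TK1, DCK and DUT 208956_x_at), where 12.3% of all probe sets were apart in that direction and 24.5% in either. With the shRNA higher, 0 of 15 were apart, and 12.2% of all. Without array 2, which leaves 2 arrays against 3, both RRM1 probe sets and DTYMK were apart and higher (3 of 15, where 19.9% of all were), and 8 of 15 were apart and lower (both of RRM2, all 3 of TK2, TK1, DCK and DUT 208956_x_at), where 18.2% of all were, or 38.1% in either direction. Leaving out array 2, or array 2 with scramble B, also gave 0 calls among the 15. With 3 arrays a group and array 2 apart the intervals are wide, as the -1.81 to 0.01 for RRM2 201890_at shows, and an adjusted p above the threshold does not show that these genes kept their level.

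Whether the response differed between the shRNAs was tested as the HDAC5 change minus the LSD1 change in 1 limma fit of all 12 arrays. The 2 changes share no array. Each shRNA has its own experiment and scramble set, so shRNA target and experiment cannot be told apart here. The difference was called for 12 of 15 member probe sets, 11 higher and 1 lower, where 26.9% of all probe sets were called, 14.2% higher and 12.7% lower. It was largest for RRM2, at 3.42 (SE 0.42, adjusted p = 0.00015) and 3.35 (SE 0.32, adjusted p = 3.3e-05), then TK1 at 2.23 (SE 0.24, adjusted p = 6.6e-05) and TYMS at 1.73 (SE 0.16, adjusted p = 3e-05). DUT differed by 1.69, 1.03 and 0.66, RRM1 by 1.18 and 1.00, and DCK by 1.13, each with an adjusted p of 0.00072 or less. For DTYMK the difference was 0.82 (SE 0.27, adjusted p = 0.0396). That call was lost after quantile normalization over all 12 arrays (0.77, adjusted p = 0.0616) and without any 1 of the 6 arrays of the HDAC5 experiment or scramble arrays A or C. TK2 was called lower on 204227_s_at (-0.86, SE 0.20, adjusted p = 0.0082) and not on 204276_at (-0.82, interval -1.60 to -0.05, adjusted p = 0.113) or 204277_s_at (-0.58, adjusted p = 0.0869). Without LSD1 shRNA array 3 both of these were called, at -1.09 and -0.74, and 204276_at also without array 2 and scramble B together, at -0.60. Of 15 alternatives run, TK2 204227_s_at was called in 15, as were both RRM2, both RRM1 and all 3 DUT probe sets, TYMS 202589_at, TK1 and DCK. DTYMK was called in 6, TK2 204276_at in 2 and TK2 204277_s_at in 1.

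Levels across the 4 groups show where each group sits. The scramble arrays of the HDAC5 experiment were the lowest group for all 11 probe sets that rose with HDAC5 shRNA and the highest for the 3 of TK2. For RRM2 201890_at the group means ran from 9.79 ± 0.15 (SD, n = 3) in that scramble group through 11.98 ± 0.86 with LSD1 shRNA and 12.31 ± 0.02 with HDAC5 shRNA to 12.88 ± 0.13 in the other scramble group. Of these neighbours, LSD1 and HDAC5 shRNA overlapped and the others did not. For TYMS 202589_at the means were 10.63 ± 0.07, 12.15 ± 0.04 (HDAC5 shRNA), 12.55 ± 0.32 (LSD1 shRNA) and 12.76 ± 0.04, and only the lowest group was apart from its neighbour. For TK1 the order was the same as for TYMS, at 7.68 ± 0.14, 9.42 ± 0.04, 9.57 ± 0.45 and 10.06 ± 0.10, with the middle pair overlapping. TK2 204276_at ran the other way, from 8.19 ± 0.64 with LSD1 shRNA, 8.23 ± 0.06 with HDAC5 shRNA and 8.56 ± 0.35 in the LSD1 scramble group, which all overlapped, up to 9.42 ± 0.03.

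The scramble group of the LSD1 experiment thus lay above that of the HDAC5 experiment by 3.09 for RRM2, 2.38 for TK1, 2.13 for TYMS and 1.62 for RRM1 201477_s_at, and differed by -0.87 for TK2 204276_at. After quantile normalization over the 12 arrays these differences were 2.71, 2.01, 1.72, 1.23 and -1.22. The direction stayed, but the order of the groups changed for several members. For DCK, LSD1 shRNA became lowest. For TK1, LSD1 shRNA moved below HDAC5 shRNA, with means of 9.41 and 9.56 and still with overlap. On TK2 204276_at HDAC5 shRNA came to lie above the LSD1 scramble group, with overlap. Changes of order were also seen for RRM2 209773_s_at, DUT 208956_x_at and 209932_s_at, the other TK2 probe sets and TYMS 217684_at. The order stayed for RRM2 201890_at and TYMS 202589_at. The HDAC5 shRNA arrays lay -0.57 from the LSD1 scramble group for RRM2 and -0.64 for TK1 as deposited, or -0.19 and -0.32 after that normalization. Both groups have a scramble hairpin, so experiment and scramble set cannot be told apart, and levels between experiments carry no test.

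Genes of like pattern were sought as those with the smallest root mean square difference from a member over the 12 arrays, after the scramble mean of each experiment was taken off. Nearest to RRM2 were MCM10, a replication initiation factor (0.15), DLEU2, a non-coding RNA (0.17, on an _x_at probe set), and E2F8, a repressor of the E2F family (0.21), where the median of all genes was 1.40. Nearest to TYMS were PCNA, the sliding clamp (0.093), TUBB4B (0.096) and TUBB3 (0.105), both tubulins on _x_at probe sets, against a median of 0.797. TK1 was nearest to DONSON (0.066), WDR76 (0.071) and GINS1, a helicase subunit (0.091), against 0.941. RRM1 was nearest to the centromere factor HJURP (0.063), CEP76 (0.071) and TUBB (0.083), against 0.561. All 12 arrays enter each value, LSD1 shRNA array 2 included, and the arrays of an experiment share its scramble mean.

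The replication genes were followed beside the members on a list of 32 S phase and replication fork genes, all 32 measured, with 1 probe set per gene. All 32 were called higher with HDAC5 shRNA, where 20.7% of all genes were called higher, 22.4% lower and 43% either way. Their median change was 1.22, against -0.02 over all genes. GINS2 (2.65, SE 0.08), MCM10 (2.41, SE 0.05) and CDC6 (2.14, SE 0.07), which load or activate the replicative helicase, rose most, and RPA3 (0.59) least. Set beside them, RRM2 at 2.52 lies within the range of these genes, TK1 and TYMS lie above their median, and DTYMK, RRM1, DCK and DUT 208956_x_at below it. With LSD1 shRNA 0 of 32 were called by limma, where 4.45% of all genes were, 2.65% higher and 1.8% lower. The median of the 32 was -0.30. At an unadjusted p under 0.05 there were 4 of 32, beside 2629 of 11963 genes in the fit of 1 probe set per gene. Without array 2, 1 of 32 was called, RPA1 (0.38, adjusted p = 0.0181), where 5.67% of all genes were, and the median was -0.09. By array, the mean of the 32 relative to scramble was 1.34, 1.33 and 1.39 with HDAC5 shRNA and -0.11, -0.75 and -0.04 with LSD1 shRNA. Array 2 was thus low for the S phase genes as for RRM2 (-1.89), TK1 (-1.001), DCK (-0.70), TYMS (-0.58) and RRM1 (-0.23). TK2 was higher there on 204276_at (0.33), and near the scramble mean on 204227_s_at (0.04) and 204277_s_at (0.08).

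**Figure D4:**
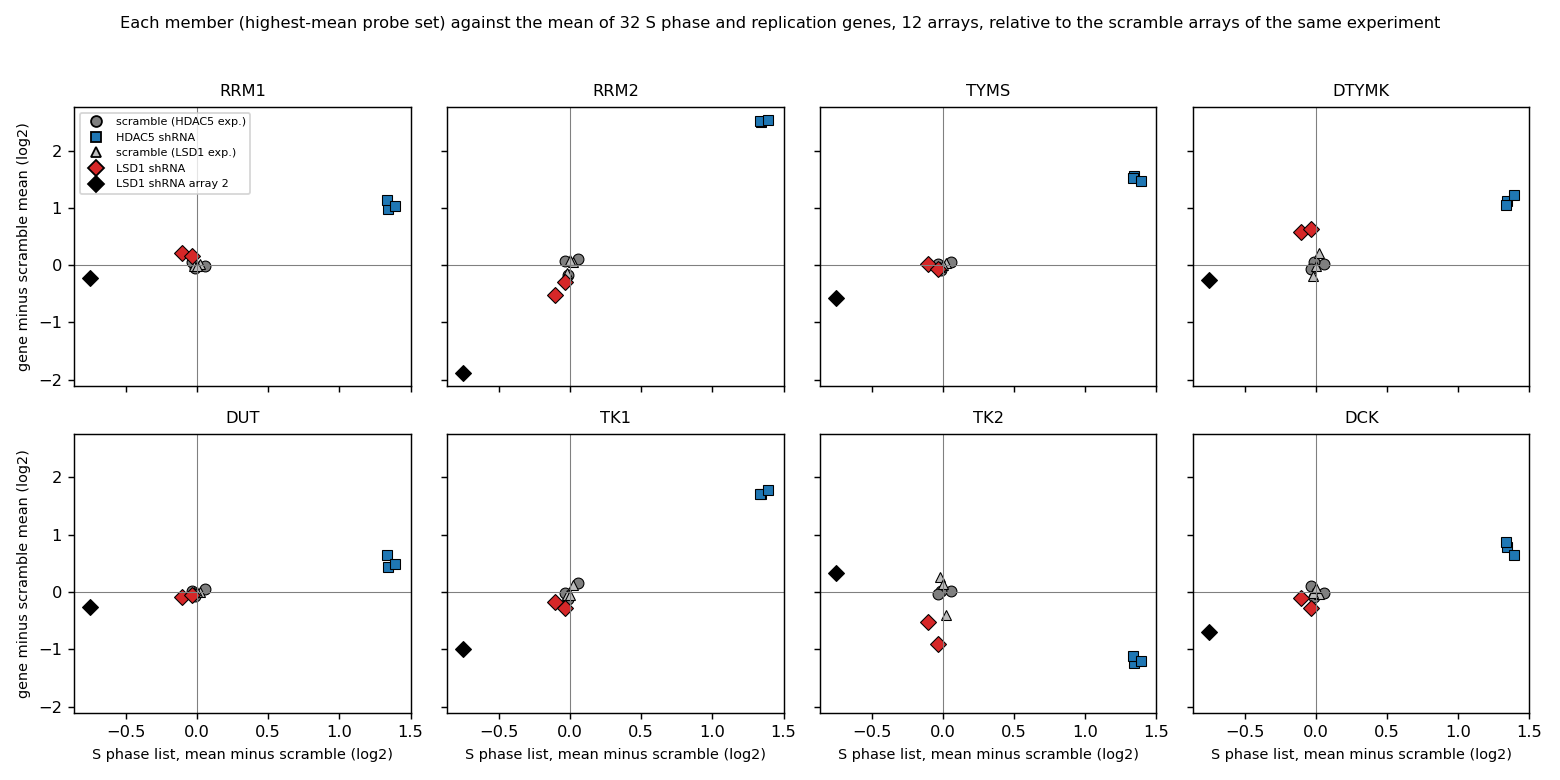
Each member by its highest-mean probe set (vertical axis) against the mean of 32 S phase and replication fork genes (horizontal axis) on 12 arrays, both log2 and relative to the scramble mean of the same experiment. The HDAC5 shRNA arrays sit between 1.33 and 1.39 on the horizontal axis and high on the vertical axis in every panel but TK2; LSD1 shRNA array 2, in black, sits at -0.75, with RRM2 at -1.89 and TK2 at 0.33.

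Genes of neighbouring steps of nucleotide metabolism were followed on 4 further lists, 1 probe set per gene. Of 16 other genes of deoxynucleotide supply, 12 were measured, and with HDAC5 shRNA 3 were called higher, 3 lower and 6 neither, with a median of -0.04. The called 6 of 12 stand beside 43% of all genes, 20.7% higher and 22.4% lower. The mitochondrial serine hydroxymethyltransferase SHMT2 fell by 0.74 (SE 0.04, adjusted p = 6.5e-07), the nucleoside diphosphate kinase NME1 rose by 0.54 (SE 0.03, adjusted p = 2.9e-06) and the nucleoside transporter SLC29A1 rose by 0.41 (SE 0.06, adjusted p = 0.00034). DGUOK, the mitochondrial deoxyguanosine kinase and partner of TK2 in mitochondrial salvage, read 11.67, 11.72 and 11.63 with scramble and 11.63, 11.56 and 11.69 with HDAC5 shRNA, which overlap (-0.04, SE 0.04, adjusted p = 0.485). Its dimmer probe set 203816_at rose by 0.43 (SE 0.05, adjusted p = 0.00021). With LSD1 shRNA 5 of the 12 had an unadjusted limma p under 0.05, beside 2629 of 11963 genes in the fit of 1 probe set per gene. By adjusted p 0 of the 12 were called, where 4.45% of all genes were. Without array 2, 1 of 12 was, the pyrimidine nucleoside monophosphate kinase CMPK1 (-0.40, adjusted p = 0.0489), where 5.67% of all genes were. RRM2B, the p53-responsive small subunit, was not analysed here.

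Of 13 genes that break down or clear deoxynucleotides, 12 were measured, and with HDAC5 shRNA 4 were called higher, 4 lower and 4 neither, beside the same 20.7% and 22.4% of all genes. DCTPP1, a pyrophosphatase of dCTP and its analogues, rose by 0.77 (SE 0.04, adjusted p = 7.4e-07), and NUDT1, which clears oxidised purine nucleotides, by 0.66 (SE 0.06, adjusted p = 4e-05). SAMHD1, the dNTP triphosphohydrolase that lowers the dNTP pool, read 7.15, 7.13 and 7.39 with scramble and 7.86, 7.94 and 7.92 with HDAC5 shRNA, with groups apart and a change of 0.68 (SE 0.08, adjusted p = 9.4e-05). In the LSD1 experiment SAMHD1 read 8.57, 8.35 and 8.39, then 8.70, 8.29 and 8.93, which overlap (0.20, SE 0.17, adjusted p = 0.583). Without array 2 its change was 0.38 (adjusted p = 0.138). With LSD1 shRNA 1 of the 12 was called, higher, as it was without array 2, where 2.65% of all genes were called higher. This was CDA, the cytidine deaminase, at 5.67, 5.03 and 5.25 with scramble and 7.47, 8.02 and 7.15 with LSD1 shRNA. Every shRNA array was well above every scramble array, by 2.23 (SE 0.25; 4.68-fold, adjusted p = 0.0082). The change was 1.99 without array 2 (adjusted p = 0.0114), and the call was lost without scramble B (2.08, adjusted p = 0.0558), scramble C (2.19, adjusted p = 0.0701) or LSD1 shRNA array 1 (2.27, adjusted p = 0.0512). With HDAC5 shRNA the CDA change was 0.12 (adjusted p = 0.228).

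Ribonucleotides are the substrate of the reductase. Of 7 genes of pyrimidine ribonucleotide synthesis, 5 were measured, and with HDAC5 shRNA 3 were called higher and 0 lower, where 20.7% of all genes were called higher and 22.4% lower. CTPS1, a CTP synthase, rose by 1.15 (SE 0.07, adjusted p = 1.6e-06), UMPS, which completes UMP, by 0.86 (SE 0.05, adjusted p = 1.8e-06), and CAD, which starts the pathway, by 0.53 (SE 0.05, adjusted p = 4.5e-05). Of 16 genes of purine ribonucleotide synthesis, 14 were measured; 9 were called higher and 1 lower, beside the same shares, with PFAS (0.79), PRPS2 (0.77) and PRPS1 (0.62) highest and GART at -0.18. The medians were 0.53 for the pyrimidine and 0.24 for the purine list. With LSD1 shRNA 6 of the 14 purine genes had an unadjusted limma p under 0.05. In the fit of 1 probe set per gene 2629 of 11963 genes had one. By adjusted p 1 of the 5 pyrimidine genes and 0 of the 14 purine genes were called, where 4.45% of all genes were. Without array 2 the counts were 1 of 5 and 3 of 14 (PRPS1 at 0.42, PRPS2 at 0.37 and PAICS at -0.24), where 5.67% of all genes were called. CTPS2, the second CTP synthase, read 7.71, 7.72 and 7.72 with scramble and 8.35, 8.58 and 8.48 with LSD1 shRNA. The groups were apart, with a change of 0.76 (SE 0.09, adjusted p = 0.0125), or 0.70 (adjusted p = 0.0181) without array 2. That call was lost without scramble B (adjusted p = 0.0775), scramble C (adjusted p = 0.0880) or LSD1 shRNA array 3 (adjusted p = 0.0530).

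**Figure D5:**
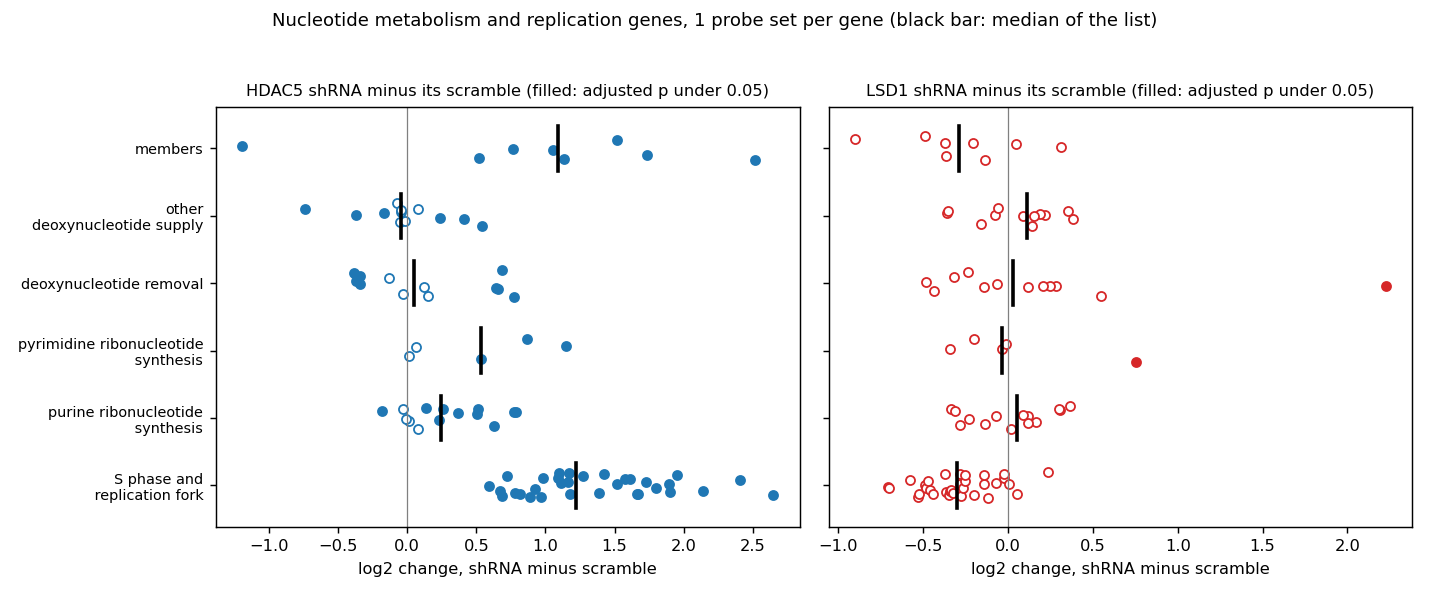
Log2 change of each gene, 1 probe set per gene, for the members and 5 lists of nucleotide metabolism and replication, with HDAC5 shRNA at left and LSD1 shRNA at right; filled points have an adjusted p under 0.05 and a black bar is the median of a list. With HDAC5 shRNA the members and the 32 S phase genes lie to the right (medians of 1.09 and 1.22), apart from TK2, and the other lists lie nearer to 0; with LSD1 shRNA CDA (2.23) and CTPS2 (0.76) are the filled points.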

How the data were processed

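RNA of 12 samples of MDA-MB-231 cells was measured on Affymetrix arrays. Each deposited value is a log2 level of 1 probe set on 1 array, made with RMA in the affy package per the submitters' processing notes. Their versions were not given in the sources used here, nor whether the 12 arrays were processed jointly. RMA corrects background, equalises the distributions of the arrays given to it and compresses changes at low signal. The array medians differed more between the experiments than within either. The 12 arrays thus lack the shared distribution that a joint RMA run gives. All 12 value columns were matched to a sample and 0 were left over. Of 22277 probe sets, 62 controls were left out; 19064 had 1 symbol, of which 19052 were updated through the gene ID to RefSeq names (GRCh38.p14) and 12 kept theirs, 1043 had several and 2108 none.

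Each shRNA was compared with its own scramble arrays in limma 3.58.1 (R 4.3.3; lmFit, eBayes with a mean-variance trend) on the deposited log2 values of all 22215 probe sets, with Benjamini-Hochberg adjustment and no filter; the difference between the changes was a contrast over 12 arrays. SE and 95% intervals are limma's. The number of arrays limits the precision. Lists used the probe set with the highest mean per gene. Named were all members, the targets HDAC5 and KDM1A, up to 3 called genes of the largest change per list and shRNA, RRM2B, DGUOK and SAMHD1 in any case (another gene of this rule is not reported here), and the 3 genes nearest in pattern to RRM2, TYMS, TK1 and RRM1; RPA3, GART, the genes called only without LSD1 shRNA array 2 and the markers named for their level or their calls beyond 3, chosen after their values were seen, and ENOSF1, an overlapping neighbour, are outside this rule. The members and lists were chosen with earlier results of these data known. The fits were tested on simulated data with known changes. A log2 change of 0.5 was recovered for 74.6% of changed probe sets in the HDAC5 comparison and 29.9% in the LSD1 comparison. For a change of 1 these shares were 97% and 71.6%, and for 2 they were 100% and 95.5%. Alternatives were no trend, a filter on dim probe sets, 1 value per gene, 1 fit of 12 arrays, quantile normalization over 12 arrays, a replicate block and each array left out; leaving out LSD1 shRNA array 2 for paired differences, overlaps and lists was added after seeing the data. Probes were not mapped to transcripts here.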

Additional observations from a re-analysis of the deposited data

Results flagged for a closer look

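The change with HDAC5 shRNA differed from that with LSD1 shRNA for 12 of the 15 member probe sets (limma, adjusted p under 0.05). This was a test of the difference itself, where 26.9% of all probe sets were called. Each shRNA has its own experiment and scramble set, so shRNA target and experiment cannot be told apart. The differences in log2 change were 3.42 (201890_at) and 3.35 (209773_s_at) for RRM2, 2.23 for TK1, 1.73 for TYMS 202589_at, and 1.69 (208955_at), 1.03 (209932_s_at) and 0.66 (208956_x_at) for DUT. For RRM1 they were 1.18 (201476_s_at) and 1.00 (201477_s_at), for DCK 1.13, for DTYMK 0.82 (called in 6 of 15 alternatives) and for TK2 204227_s_at -0.86.

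The within-array difference RRM2 minus RRM1 moved in opposite directions on all arrays of the 2 shRNA groups, by 1.47 with HDAC5 shRNA and -0.95 with LSD1 shRNA, a difference of 2.42. Without LSD1 shRNA array 2, the shift with LSD1 shRNA was -0.60. This difference was not tested.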

How the results depend on the processing

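With HDAC5 shRNA the 14 calls among the members held in every alternative that kept all probe sets, and 8 of 8 genes were called with 1 value per gene, by the highest probe set or by the mean of probe sets (8 and 8). The total of 8489 called probe sets became 5319 and 5130 genes in those 2 settings, 5539 in the fit of 12 arrays and 7109 to 8088 with 1 array left out. With LSD1 shRNA 0 members were called throughout, and the total of 847 became 3485 in the fit of 12 arrays, 112 to 1062 with 1 array left out (scramble A, B or C left out gave 329, 126 and 112, LSD1 shRNA 1 or 3 gave 189 and 230) and 91 without scramble B and LSD1 shRNA 2 together, an alternative chosen after seeing the data. The difference between shRNAs was called for 4846 to 6560 probe sets and 11 to 14 members with 1 array left out. The cause of these moves was not tested, except that fewer values are tested with 1 per gene.

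The replicate block in the HDAC5 experiment called 7621 probe sets and the same number of member probe sets, 14. The correlations of deviations between arrays of the same number were -0.047, -0.21 and -0.14 over 22215 probe sets, so no positive correlation was seen. Deviations from a mean of only 3 arrays are tied together, so these values cannot decide whether the numbers pair the samples. The LSD1 experiment has letters against numbers. No paired analysis was possible because no numbers are shared there.

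The named values that changed sign had these values, with the range over single arrays left out, and the cause was not tested. With LSD1 shRNA, DUT 208955_at was 0.058 without LSD1 shRNA 2 (range -0.30 to 0.058) and 0.053 without scramble B as well, RRM1 201477_s_at was -0.037 without LSD1 shRNA 1 and -0.0064 without 3 (-0.037 to 0.19), and HDAC5 was -0.083 without 2 (-0.083 to 0.49). TYMS 217684_at ranged from -0.014 to 0.10 with HDAC5 shRNA and from -0.12 to 0.12 with LSD1 shRNA (0.038 without LSD1 shRNA 2, 0.022 without scramble B as well). Its difference ranged from -0.071 to 0.17, with -0.0098 without HDAC5 shRNA 3. With HDAC5 shRNA, KDM1A was -0.032 after quantile normalization, and -0.016 to 0.026 with 1 array left out (-0.0018 without scramble 3). DGUOK was 0.19 by the mean of its probe sets (adjusted p = 0.0061).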
